A study of Mus musculus with 16 samples.

Results

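Endoderm H3K27me3 was compared between WT and arid4b-delta cells from the 2 broad peak lists deposited for that mark and lineage, 1 library a side. The lists held 10326 WT and 16660 arid4b-delta peaks, together 26986 of the 224510 peaks deposited for the 12 ChIP libraries of the series (16 samples with the inputs). The comparison asked how the trimethyl mark on lysine 27 of histone H3 lay in mouse embryonic stem cells driven toward endoderm with and without the arid4b-delta genotype. The Arid4b protein belongs to a Sin3 histone deacetylase complex, a corepressor.

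Both groups were CJ9 mouse embryonic stem cells directed to endoderm for 5 days and fixed with formaldehyde for 8 min. They differed in genotype, WT or arid4b-delta (arid4b∆ in the labels). Neither the extent of the Arid4b deletion nor the number of clones is given in the labels. The series also holds H3K4me3 and H3K27ac from the same cells and all 3 marks from mesoderm. With 1 library a genotype there was no replicate and no test between genotypes, and exact Clopper-Pearson 95% intervals cover counting error only. A peak list gives no read depth, and the number and width of broad peaks depend on depth and on enrichment. Depth, enrichment and genotype therefore cannot be told apart in any difference between the lists.

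H3K27me3 is written by Polycomb repressive complex 2, whose catalytic subunit is Ezh2, and is read by Polycomb repressive complex 1. In embryonic stem cells it covers CpG-rich promoters of silent developmental regulators in broad domains, with the Hox clusters as the widest known example. Many of these promoters also carry H3K4me3, a state called bivalent, and on activation H3K27me3 is lost and H3K27ac can take its place.

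The endoderm label was checked against the marker promoters. Sox17 and Foxa2, transcription factors that define endoderm, and Gata6 lay inside broad H3K27me3 domains in both genotypes. None of the 3 held an H3K27ac peak in either genotype. For Sox17 and Gata6 the start was taken as the gene end with more H3K4me3. Of 32 endoderm markers, 16 held an H3K27me3 peak within 1000 bp of the start in WT and 17 in arid4b-delta, where 14.2% and 16.8% of all 21883 protein-coding genes did. H3K27ac lay at 7 in WT and 4 in arid4b-delta. Among all genes, WT first, it lay at 31.0% and 30.1% of promoters without H3K27me3 in either genotype. At those with H3K27me3 in both it lay at 6.04% and 7.67%. Pou5f1, a core pluripotency factor, held H3K27ac and H3K4me3 and no H3K27me3 in both, and 10 of 25 pluripotency promoters held H3K27ac in WT against 11 in arid4b-delta. The promoters of Sox17, Foxa2 and Gata6 thus carried the repressive mark and not the active one in both cultures. The active state of these 3 genes that would define endoderm was not seen in the peaks. Other markers went the other way. The 4 with H3K27ac in arid4b-delta were Otx2, Epcam, Cldn6 and Cdh1 (named after their values were seen). They also held H3K27ac in WT and no H3K27me3 in either genotype. All 4 held H3K27ac in arid4b-delta mesoderm too, and Epcam and Cdh1 in WT mesoderm, so they are not particular to endoderm. Gsc, Krt8 and Krt18 (also named after their values were seen) held H3K27ac in WT endoderm and not in arid4b-delta endoderm. Of these 3, Gsc also held H3K27me3 in both genotypes. Peak lists give neither RNA nor the share of cells with a mark. Arid4b and Ezh2 carried H3K4me3 and H3K27ac and no H3K27me3 at their promoters in both genotypes. A peak call does not check the deletion.

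The promoters below show the kinds of sequence involved, 2 from domains shared by both genotypes, 2 marked in arid4b-delta only and 2 marked in WT only. Each is the 250 bases before the farthest upstream start in the RefSeq promoter table (build GRCm38.p6, which is mm10), written 5′ to 3′ on the gene's strand, with each CG dinucleotide in capitals. The annotated genes Slc35d3 and Sfrp2 reach further upstream than the start used here.
Hoxd13: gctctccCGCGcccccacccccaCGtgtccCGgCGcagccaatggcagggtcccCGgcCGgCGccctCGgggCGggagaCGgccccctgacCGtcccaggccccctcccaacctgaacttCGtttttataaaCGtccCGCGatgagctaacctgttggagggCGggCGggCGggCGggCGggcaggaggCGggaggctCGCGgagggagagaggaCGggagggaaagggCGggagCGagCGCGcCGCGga
Foxa2: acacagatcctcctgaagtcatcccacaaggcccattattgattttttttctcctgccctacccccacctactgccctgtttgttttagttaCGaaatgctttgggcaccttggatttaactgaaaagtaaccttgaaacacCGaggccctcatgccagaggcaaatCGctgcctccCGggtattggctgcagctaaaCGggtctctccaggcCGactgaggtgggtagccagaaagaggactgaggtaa
Tbx20: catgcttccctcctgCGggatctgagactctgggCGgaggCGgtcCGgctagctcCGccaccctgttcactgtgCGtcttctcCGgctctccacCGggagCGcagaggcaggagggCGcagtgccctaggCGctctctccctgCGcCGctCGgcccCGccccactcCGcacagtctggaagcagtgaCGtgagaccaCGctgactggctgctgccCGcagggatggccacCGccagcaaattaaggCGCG
Fgf10: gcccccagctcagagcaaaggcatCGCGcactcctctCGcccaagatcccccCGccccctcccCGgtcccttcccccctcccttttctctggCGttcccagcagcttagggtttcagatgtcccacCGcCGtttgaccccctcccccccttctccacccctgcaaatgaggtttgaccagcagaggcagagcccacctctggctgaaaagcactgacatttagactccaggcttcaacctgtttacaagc
Slc35d3: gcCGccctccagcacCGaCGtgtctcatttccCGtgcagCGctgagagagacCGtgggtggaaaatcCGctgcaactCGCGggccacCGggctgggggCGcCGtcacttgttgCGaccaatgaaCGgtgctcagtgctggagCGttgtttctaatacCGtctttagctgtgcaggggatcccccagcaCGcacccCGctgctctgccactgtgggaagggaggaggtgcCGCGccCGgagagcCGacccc
Sfrp2: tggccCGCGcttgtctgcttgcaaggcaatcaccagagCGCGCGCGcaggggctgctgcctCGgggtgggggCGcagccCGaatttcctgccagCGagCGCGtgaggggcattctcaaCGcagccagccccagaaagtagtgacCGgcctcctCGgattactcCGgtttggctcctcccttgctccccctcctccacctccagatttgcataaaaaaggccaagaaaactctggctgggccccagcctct
Hoxd13, which patterns the limb and the posterior body, lies on the plus strand with this window at chr2:74667975-74668224. Its 31 CG were the most of the 6, and peaks of both genotypes covered all 250 bases. The Foxa2 window (minus strand, chr2:148046970-148047219) held 6 CG and was also covered throughout in both. Tbx20 encodes a T-box factor of heart development. Its window (minus strand, chr9:24774304-24774553) held 22 CG and was fully covered in arid4b-delta and not at all in WT. Fgf10 encodes a growth factor of lung and limb budding. The Fgf10 window (plus strand, chr13:118714449-118714698) held 8 CG with the same coverage as that of Tbx20. Slc35d3 encodes a transporter of the nucleotide sugar family. Its window (minus strand, chr10:19851460-19851709) held 22 CG and was covered in WT only. Sfrp2, a secreted Wnt antagonist, had 112 of its 250 bases (plus strand, chr3:83766071-83766320, 16 CG) covered in WT and none in arid4b-delta. Over the 17491 protein-coding genes with a sequence, the median was 10 CG (quartiles 3 and 19). Promoters from each of the 3 classes therefore included CpG-rich sequence, and the shared Foxa2 window was CpG-poor.

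On chromosomes 1 to 19, X and Y the WT list covered 14.1 Mb in 10297 peaks and the arid4b-delta list 21.3 Mb in 16574 peaks. The arid4b-delta list was thus 1.61 times as long and covered 1.51 times as much sequence. The typical peak was no wider, with a median of 542 bp in WT and 523 bp in arid4b-delta. The lists shared 11.1 Mb, which was 78.9% of the WT sequence and 52.1% of the arid4b-delta sequence. WT alone covered 2.97 Mb and arid4b-delta alone 10.2 Mb. Of the WT peaks, 5557 (54.0%, interval 53.0 to 54.9) overlapped an arid4b-delta peak by at least 1 bp, and of the arid4b-delta peaks 4994 (30.1%, 29.4 to 30.8) overlapped a WT peak. Most of the WT landscape was therefore contained in the arid4b-delta landscape, and the reverse was not so.

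Cutting the arid4b-delta list to the 10297 peaks with the highest fold enrichment (the authors' ratio of each peak over its background) took away most of this difference. The cut lay at a fold of 1.82 and left 15.1 Mb, 1.08 times the WT sequence. The shared sequence then came to 8.58 Mb, or 61.0% of WT and 56.7% of the cut arid4b-delta list. Of the 6277 peaks left out, 1719 overlapped a WT peak, so that the WT peaks with a partner numbered 3748 (36.4%) after the cut. Ranking by the authors' −log10 q in place of fold gave a ratio of 1.11, and ranking by width 1.41. With peaks of −log10 q of at least 2 only, 4394 in WT and 8163 in arid4b-delta, the ratio was 1.72.

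**Figure D1:**
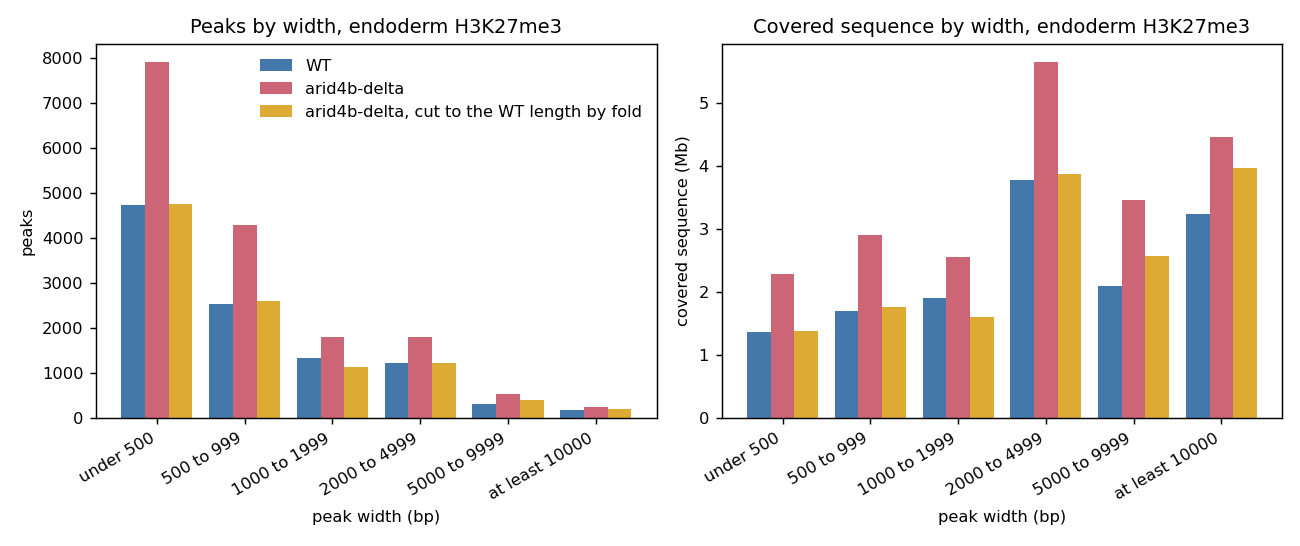
Peaks (left) and covered sequence in Mb (right) by peak width in bp for the WT list, the arid4b-delta list and the arid4b-delta list cut to the WT length by fold. The full arid4b-delta bars are the tallest in every class, and the cut list has more peaks than WT in both classes from 5000 bp.

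Small peaks made up most of each list and little of the sequence. Peaks under 1000 bp were 70.5% of WT peaks and 73.7% of arid4b-delta peaks, and held 21.7% and 24.3% of the covered sequence. Peaks of at least 5000 bp numbered 480 in WT and 763 in arid4b-delta and held 37.9% and 37.2% of the sequence. The share of each width class was thus similar in both lists, and the arid4b-delta list had more peaks in all 6 classes.

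Agreement between the genotypes depended on width. All 480 WT peaks of at least 5000 bp overlapped an arid4b-delta peak, and 97.3% of their sequence was covered. Of the 763 arid4b-delta peaks in that range, 758 overlapped a WT peak, with 82.1% of the sequence covered. The 5 exceptions lay at Tbx20, Bmper, Zmiz1, Adamts8 and Gfra2. From 1000 to under 2000 bp, 90.0% of WT and 55.7% of arid4b-delta peaks had a partner. Under 500 bp, 31.2% of WT (29.9 to 32.5) and 10.4% of arid4b-delta peaks (9.72 to 11.1) did. Broad domains were therefore nearly all common to both genotypes, while most narrow peaks were called in 1 library only.

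The cut by fold changed the picture for the broad domains. After it, 83.1% of WT peaks of at least 5000 bp had a partner (79.5 to 86.4), as the cut removed 171 arid4b-delta peaks of that width. Broad domains have modest fold values, and the arid4b-delta peak of 44193 bp at Hand2, a heart and limb factor, had a fold of 1.45. Among the 100 peaks with the highest fold, with a median width of 390 bp in WT and 418 bp in arid4b-delta, 1 was common to both genotypes. Among the 100 widest, 80 WT peaks overlapped 78 arid4b-delta peaks. Rank by fold therefore put narrow and mostly different peaks at the top of each list, and rank by width put mostly the same domains there. Against the full arid4b-delta list, 49.3% of the 1000 WT peaks highest by fold had a partner.

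**Figure D2:**
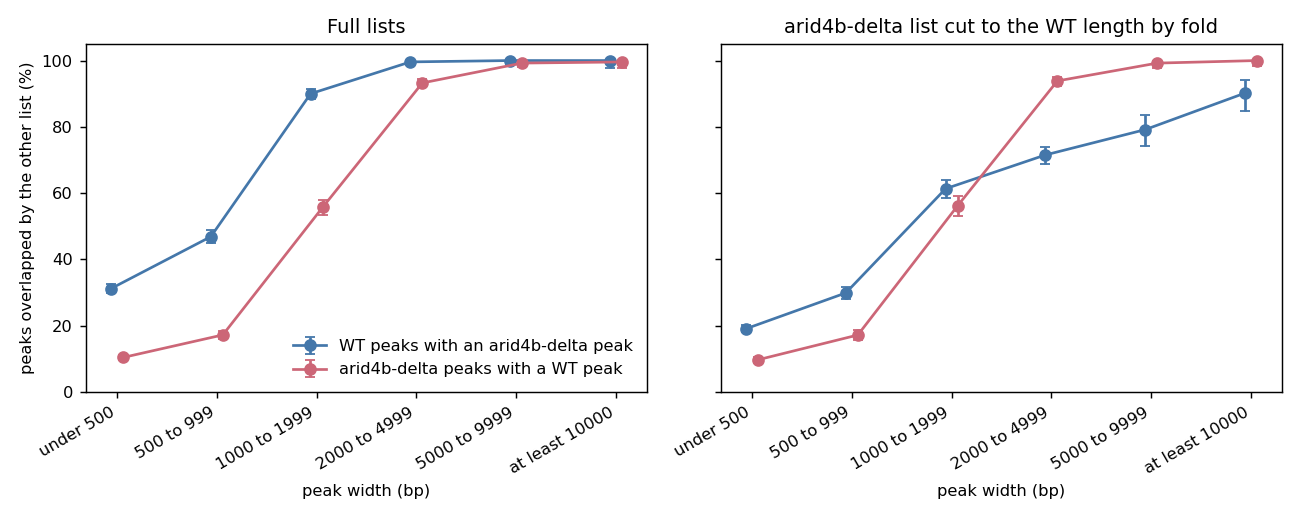
Percent of peaks overlapped by the other list against peak width in bp, with exact 95% intervals as bars, for the full lists (left) and after the cut of the arid4b-delta list by fold (right). Overlap rises with width in both lists, to 100% of WT peaks of at least 5000 bp in the full lists.

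Matched peaks were mostly wider in arid4b-delta. There were 4075 pairs in which 1 peak of each list overlapped only the other, and the arid4b-delta peak was the wider in 3006 of the 4065 that differed (73.9%, 72.6 to 75.3). The median ratio of widths was 1.31. It was largest at a mean width of 1000 to under 2000 bp, where it reached 1.68, and was 1.05 in the 87 pairs of at least 10000 bp. Narrow pairs under 500 bp had a median ratio of 1.00. In addition, 596 arid4b-delta peaks spanned 2 or more WT peaks, against 186 WT peaks that spanned 2 or more arid4b-delta peaks. Among these pairs the middle-sized ones thus had the largest median ratio. The pairs leave out domains split or joined between lists, and peaks of at least 10000 bp covered 3.24 Mb in WT and 4.46 Mb in arid4b-delta.

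The widest domains were the Hox clusters, the arrays of homeobox genes that set position along the body axis. The HoxA domain measured 113468 bp in WT and 121671 bp in arid4b-delta. The HoxC domain measured 103595 and 108078 bp, the HoxB domain 92775 and 110876 bp, and the HoxD domain with Evx2 61931 and 61972 bp, WT first. All 39 listed Hox promoters were marked in both genotypes, and all 39 stayed marked in both after the cut by fold. A domain of 87409 bp in WT and 87818 bp in arid4b-delta on chromosome 8 (chr8:123537280-123624688 in WT) held no start of a protein-coding gene of the annotation. At Tbx3, a T-box factor of limb and mammary development, 1 arid4b-delta peak of 38206 bp stood against a WT promoter peak of 14282 bp. WT peaks together covered 90.6% of that arid4b-delta peak, so the WT domain was split into several calls.

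By position, promoters held the most shared sequence. A peak was called promoter when it overlapped the 1000 bp either side of a protein-coding gene start, otherwise gene body or intergenic. There were 3163 promoter peaks in WT (30.7%, 29.8 to 31.6) and 3827 in arid4b-delta (23.1%, 22.5 to 23.7). They held 63.2% and 57.3% of the covered sequence. Intergenic peaks were 44.5% of the WT list and 50.7% of the arid4b-delta list, and gene-body peaks 24.8% and 26.3%. Relative to WT, the arid4b-delta list held 1.21 times as many promoter peaks.

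Overlap with the other genotype followed the same order in both lists. It was highest at promoters (82.9% of WT and 68.6% of arid4b-delta peaks), lower in gene bodies (47.8% and 21.9%) and lowest between genes (37.4% and 16.9%). The arid4b-delta list had 1202 promoter peaks and 6981 intergenic peaks with no WT partner. In WT these numbers were 541 and 2867. After the cut by fold the arid4b-delta list kept 2610 promoter peaks (25.3%), below the 3163 of WT. The direction of the promoter difference thus turned, to a ratio of 0.825. The share of promoter peaks stayed lower in arid4b-delta with and without the cut.

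Around the gene start, promoters marked in both genotypes showed the broadest coverage. Over 2021 such genes with a stranded start, coverage was highest 500 to 1000 bp downstream of the start, at 71.7% in WT and 79.7% in arid4b-delta. At 5000 to 5500 bp downstream it was 11.2% and 14.3%. The mesoderm libraries, which took no part in choosing these genes, reached 41.3% in WT and 76.8% in arid4b-delta. At the 744 genes marked in arid4b-delta only, the arid4b-delta mesoderm library reached 23.1% in the same bin and WT mesoderm 2.82%. The 325 genes marked in WT only reached 3.79% in WT mesoderm and 7.69% in arid4b-delta mesoderm.

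**Figure D3:**
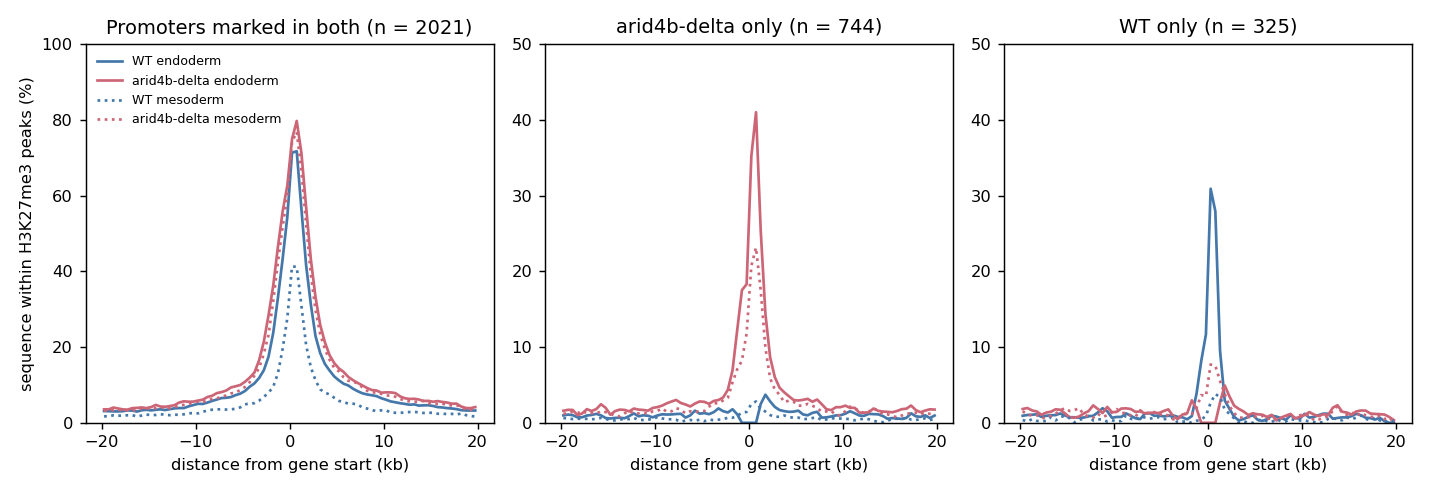
Percent of sequence inside H3K27me3 peaks against distance from the gene start in kb, in bins of 500 bp, for promoters marked in both genotypes, in arid4b-delta alone and in WT alone, on different vertical scales. Solid lines are endoderm and dotted lines mesoderm. The endoderm lines near 0 follow from how the classes were defined, and the dotted mesoderm lines do not.

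Promoters were next counted gene by gene. Of 21883 protein-coding genes, 3114 held a WT peak (14.2%) and 3677 an arid4b-delta peak (16.8%), and 2699 held both. Marked in arid4b-delta only were 978 promoters (4.47% of all genes), and in WT only 415 (1.9%). Of the 1393 that differed, 70.2% were on the arid4b-delta side (67.7 to 72.6). After the cut by fold this turned to 626 in arid4b-delta only (2.86%) against 1178 in WT only (5.38%), and 34.7% of the differing promoters lay on the arid4b-delta side. The same cut by −log10 q left 610 in arid4b-delta only (2.79%) against 1140 in WT only (5.21%), a share of 34.9%, and a cut by width gave 57.2%. When a promoter counted only if the other genotype had no peak within 5000 bp, 803 in arid4b-delta (3.67%) and 331 in WT (1.51%) remained. The side that held more of the differing promoters thus depended on the length of the lists and on the rank used to shorten them.

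The promoters of 1 genotype only had small peaks. The median width of the promoter peak was 629 bp in the arid4b-delta-only class and 426 bp in the WT-only class. At promoters marked in both it was 2899 bp in arid4b-delta and 1986 bp in WT. The arid4b-delta-only class was also less CpG-rich: the 250 bases before the start held a median of 13 CG, against 16 for WT only, 17 for both and 8 for neither. A ratio of observed to expected CG of at least 0.6 was found at 52.7% of arid4b-delta-only (49.0 to 56.3), 62.2% of WT-only (56.6 to 67.4), 64.4% of shared and 41.8% of unmarked promoters.

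The mesoderm H3K27me3 lists, which had no part in defining shared peaks, held more of the shared peaks than of the rest. Of the arid4b-delta peaks shared with WT, 82.4% overlapped an H3K27me3 peak of arid4b-delta mesoderm and 55.0% one of WT mesoderm. For peaks found in arid4b-delta only these shares were 14.6% and 3.49%. Of the shared WT peaks, 81.8% and 51.4% were found in the same mesoderm libraries, and of the WT-only peaks 9.49% and 4.18%. The arid4b-delta mesoderm list covers 16.9 Mb and that of WT mesoderm 6.85 Mb, so the 2 shares in each pair are not on the same footing. Within either mesoderm list, shared endoderm peaks were found many times more often than peaks of 1 genotype. They were also wider, with medians of 1059 bp in WT and 1913 bp in arid4b-delta against 361.5 and 411 bp, so width and sharing cannot be told apart here.

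At promoters the pattern was alike. Of the 978 promoters marked in arid4b-delta only, 49.1% (45.9 to 52.3) were marked in arid4b-delta mesoderm and 9.71% in WT mesoderm. Of the 415 marked in WT only, 25.1% (21.0 to 29.5) were marked in arid4b-delta mesoderm and 9.88% in WT mesoderm. Promoters with no endoderm mark were marked in 2.12% and 0.585%. Over all genes, WT mesoderm marked 9.24% and arid4b-delta mesoderm 16%, with 1611 promoters marked there in arid4b-delta only (7.36%) against 133 in WT only (0.608%). The WT-only class was thus found in arid4b-delta mesoderm more often than in WT mesoderm.

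H3K27ac, the mark of active promoters, differed between the classes. In WT endoderm it lay at 6.04% of promoters marked in both genotypes, 32.5% of those marked in WT only (28.0 to 37.3), 15.2% of those in arid4b-delta only and 31.0% of unmarked ones. In arid4b-delta endoderm the shares were 7.67%, 33.5%, 16.9% and 30.1%. Promoters marked in WT only therefore carried H3K27ac about as often as unmarked promoters, and in both genotypes. H3K4me3 also placed the start of 2644 genes, so its shares are not independent of the promoter windows. In WT endoderm it lay at 71.6% of shared, 80.2% of WT-only and 57.7% of arid4b-delta-only promoters. In arid4b-delta the H3K4me3 shares came to 90.1%, 85.1% and 70.2%, with an H3K4me3 list that covered 21.0 Mb against 12.6 Mb in WT.

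Intergenic peaks differed in their overlap with H3K27ac. Of the 1415 shared intergenic arid4b-delta peaks, 31.7% overlapped an H3K27ac peak of arid4b-delta endoderm and 5.65% one of WT endoderm. For the 6981 intergenic peaks of arid4b-delta only, these shares were 16.1% and 0.458%. The 2867 intergenic peaks of WT only overlapped arid4b-delta H3K27ac in 16.0% and WT H3K27ac in 0.977%. The arid4b-delta H3K27ac list has 35806 peaks and the WT list 14167. The excess of arid4b-delta over WT H3K27ac was therefore present at intergenic H3K27me3 peaks called in WT as well as at those called in arid4b-delta. The first 10 Mb of chromosome 14 alone held 368 WT and 523 arid4b-delta endoderm H3K27me3 peaks. The same stretch held 99 WT and 664 arid4b-delta endoderm H3K27ac peaks, and its part in these shares was not tested.

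Genes grouped by function showed which promoters these were. The groups held 467 distinct genes in 20 lists. Promoters marked in both genotypes were 36 of 40 neuroectoderm genes, 29 of 38 mesoderm genes, 12 of 22 primitive streak genes, 13 of 20 Notch pathway genes and 15 of 32 endoderm markers. Among all 21883 genes 2699 were. At Sox17 the peak measured 9865 bp in WT (chr1:4488640-4498504) and 12222 bp in arid4b-delta (chr1:4487772-4499993). At Foxa2 it measured 13813 bp in WT (chr2:148035607-148049419) and 17152 bp in arid4b-delta (chr2:148035016-148052167). At Gata6 it measured 16379 and 16728 bp. Both genotypes thus covered the whole promoter window of each of these endoderm regulators, and at none of the 3 was the arid4b-delta peak the narrower.

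The fold values at these 3 genes were similar in both lists, for example 3.04 in WT and 3.01 in arid4b-delta at Foxa2, but folds are not comparable between libraries. Gata4, a further endoderm factor, had a promoter peak of 146 bp in arid4b-delta only (−log10 q of 0.614), with a WT peak 3138 bp from the nearer gene end. H3K27me3 peaks covered 21.5% of the annotated Gata4 gene in WT and 26.3% in arid4b-delta, so the gene itself was marked in both. Both gene ends stood for the start at Gata4, Tbx5 and Thbd. The other differing endoderm markers were Foxa3 in arid4b-delta only (812 bp, named after its values were seen) and Krt19, a keratin, in WT only (500 bp). After the cut by fold, 3 endoderm markers were marked in WT only and 0 in arid4b-delta only, where all genes gave 5.38% and 2.86%. The 3 were Krt19, Foxa1 and Sox7 (the last 2 named after their values were seen). Foxa1 lay in a peak of 20564 bp in WT and 21878 bp in arid4b-delta, which the cut removed at a fold of 1.79.

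**Figure D4:**
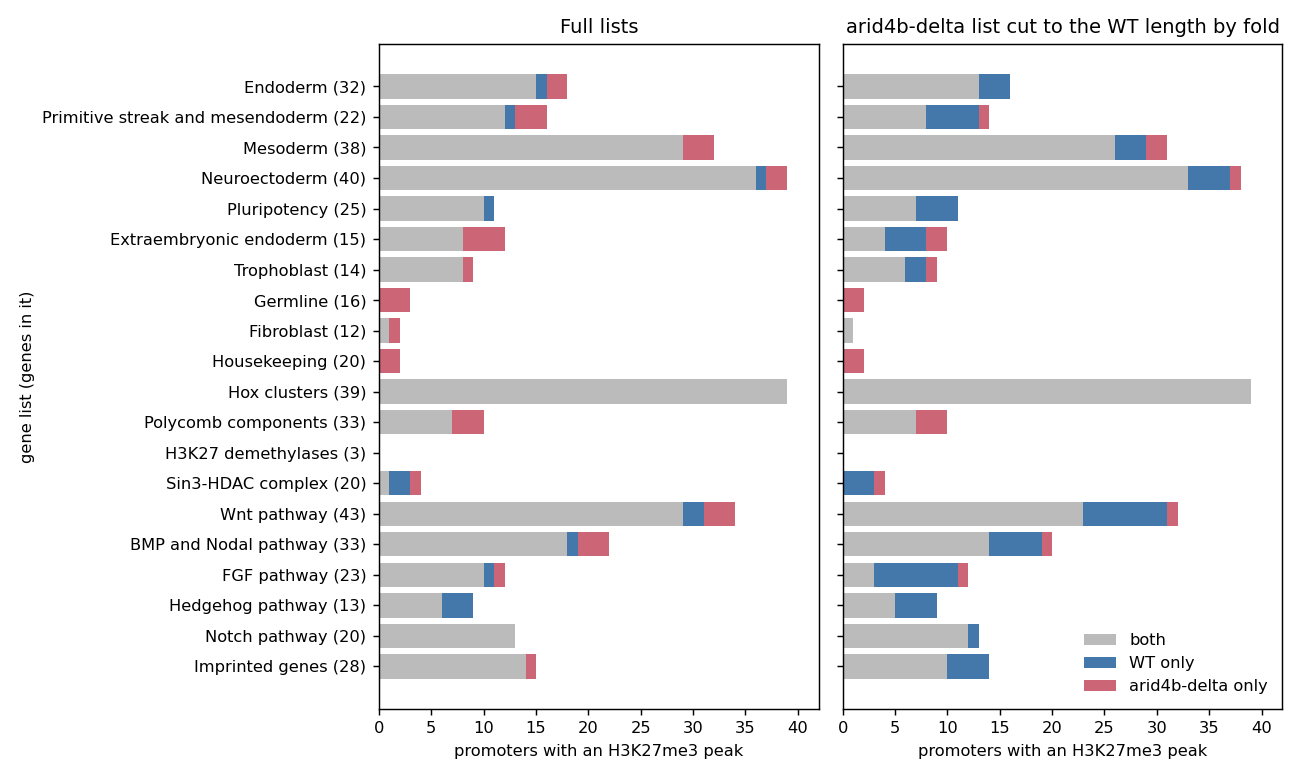
Number of promoters with an H3K27me3 peak in both genotypes, in WT only and in arid4b-delta only for the 20 gene lists, with the number of genes in brackets, in the full lists (left) and after the cut by fold (right). Hox promoters are marked in both throughout, and the WT-only part grows in most lists after the cut.

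Mesoderm and primitive streak genes that differed were mostly on the arid4b-delta side, with 3 mesoderm and 3 streak promoters in arid4b-delta only against 0 and 1 in WT only. Over all genes the same shares were 4.47% and 1.9%. Wnt3, the ligand that initiates the primitive streak, had the highest fold of these, 11.5, in a peak of 1051 bp (chr11:103774450-103775500). The nearest WT peak was 17247 bp away. Snai1, a repressor active in epithelial-mesenchymal transition, had a peak of 996 bp with the nearest WT peak 16277 bp away. Tbx5, a heart and forelimb factor, had 882 bp with a WT peak 1143 bp away. The other streak promoters on the arid4b-delta side, Cdx4 and Lefty1 (named after their values were seen), had peaks of 163 and 160 bp. Their −log10 q was 0.565 and 0.897, and neither stayed marked after the cut by fold. Tbx6, a factor of presomitic mesoderm, was marked in WT only by a peak of 187 bp. After the cut by fold these lists had 2 and 1 promoters in arid4b-delta only and 3 and 5 in WT only.

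Among 15 extraembryonic endoderm genes, 4 were in arid4b-delta only (4.47% of all genes) against 0 in WT only (1.9%). The cut by fold turned this to 2 (2.86% of all genes) against 4 (5.38%). In the full lists the 4 included Thbd (2635 bp), the thrombin receptor thrombomodulin, and Lamb1 (647 bp), a laminin chain. The others were Gata4 (146 bp, with WT peaks inside the gene) and Dab2 (374 bp, named after its values were seen). Of 16 germline genes, 3 were marked in arid4b-delta (18.8%, near the 16.8% of all genes) and 0 in WT (14.2% of all genes). Ddx4, an RNA helicase of germ cells, had 1159 bp, Brdt, a testis bromodomain protein, 241 bp, and Sycp1 985 bp (named after its values were seen). In mesoderm 4 of the 16 were marked in arid4b-delta and 0 in WT, where 16% and 9.24% of all genes were. Of 20 housekeeping genes, 2 were marked in arid4b-delta (10%) and 0 in WT, both below the shares over all genes. Polr2a, the largest subunit of RNA polymerase II, had 172 bp and B2m 284 bp. Krt7, a keratin of trophoblast, was marked in arid4b-delta only (645 bp). After the cut the trophoblast list had 1 promoter in arid4b-delta only (2.86% of all genes) against 2 in WT only (5.38%).

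Signalling pathways differed gene by gene. Of 43 Wnt pathway genes, 29 were marked in both, 3 in arid4b-delta only against 2 in WT only, where all genes gave 4.47% and 1.9%. Beside Wnt3, the arid4b-delta side held Sfrp4 (1088 bp) and Rspo3 (3030 bp, a WT peak 1223 bp away), named after their values were seen. The WT side held the secreted Wnt antagonists Sfrp2 (613 bp) and Wif1 (302 bp, an arid4b-delta peak 1768 bp away). Of 33 BMP and Nodal genes, 18 were marked in both, 3 in arid4b-delta only (4.47% of all genes) against 1 in WT only (1.9%). They included Bmper, a BMP-binding protein, with 6062 bp in arid4b-delta, and Inhba, the activin A subunit, with 1177 bp in WT. In the FGF list Fgf10 (3420 bp, chr13:118712633-118716052) stood on the arid4b-delta side and Fgf15 (1104 bp) on the WT side. After the cut by fold the FGF list had 8 promoters in WT only and 1 in arid4b-delta only, and so had the Wnt list. Over all genes the same cut left 5.38% in WT only and 2.86% in arid4b-delta only.

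Among the 5 signalling lists (Wnt, BMP and Nodal, FGF, Hedgehog and Notch), Hedgehog was the one with fewer promoters marked in arid4b-delta than in WT. In the full lists it had 6 of 13 in arid4b-delta (16.8% of all genes) against 9 in WT (14.2%). Once cut by fold, each of the 5 had fewer in arid4b-delta, for example 4 against 11 in the FGF list and 5 against 9 in the Hedgehog list. Over all genes the cut gave 11.7% in arid4b-delta against 14.2% in WT. Shh, Ihh and Dhh, the ligands, were marked in both, with Shh in peaks of 14113 bp in WT and 15157 bp in arid4b-delta. Ptch1, the receptor, Gli2, a transcription factor of the pathway, and Gas1, a co-receptor, were marked in WT only (1.9% of all genes), in peaks of 863, 894 and 1595 bp. An arid4b-delta peak lay 2685, 1077 and 1133 bp from their starts, so each of the 3 kept H3K27me3 close by in arid4b-delta. In mesoderm the list went the other way, with 5 marked in WT (9.24% of all genes) and 7 in arid4b-delta (16%).

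Among chromatin regulators, 7 of 33 Polycomb components were marked in both genotypes and 3 in arid4b-delta only (4.47% of all genes). The 3 were Phc2 (655 bp), Kdm2b (540 bp) and Yaf2 (1868 bp), all subunits of forms of Polycomb repressive complex 1. At Phc2 (chr4:128726201-128726855, gene 128654655-128752881) and Kdm2b (chr5:122899673-122900212, gene 122870664-122989270) the peak lay at a start inside the gene. It was not at either end of the annotated gene. Among the 7 were Phf19 and Epop, accessory subunits of Polycomb repressive complex 2, whereas the core subunits Ezh2, Eed and Suz12 were unmarked (all but Ezh2 named after their values were seen). Of 20 Sin3-HDAC genes, Sap30l (643 bp) and Ing2 (288 bp) were marked in WT only (1.9% of all genes). Sin3b (465 bp) was marked in arid4b-delta only (4.47%). The 3 H3K27 demethylase genes were unmarked in both. In the pluripotency list 10 of 25 were marked in both, 0 in arid4b-delta only (4.47% of all genes) and Utf1 (832 bp) in WT only (1.9%). Neuroectoderm genes that differed were Dbx2 (1148 bp) and Zic2 (978 bp, named after its values were seen) in arid4b-delta only and Sox3 (623 bp) in WT only. Here too the shares over all genes were 4.47% and 1.9%.

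Some promoters counted as marked in both differed in the extent of the promoter peak. Pou3f1, a neural POU factor, lay under a WT peak of 5411 bp (chr4:124654800-124660210) and an arid4b-delta peak of 345 bp (chr4:124656350-124656694). From chr4:124656695 to 124659381 the WT peak formed one of the 5 widest runs found in WT only (2687 bp). A further arid4b-delta peak followed that run inside the WT peak. The 345 bp peak covered 49 of the 2001 bp of the promoter window. At Wnt1 the single peak with most of the promoter window was 8735 bp in WT and 23552 bp in arid4b-delta (named after its values were seen). How much of the wider peak other WT peaks covered is not given here. The widest WT-only promoter peak lay at Slc35d3 (3218 bp, chr10:19849163-19852380), followed by a peak of 2793 bp shared by Arhgdig and Rgs11, Pgr (2024 bp, fold 1.02, on chromosome 9), the progesterone receptor, and Cd302 (1759 bp). The highest folds in WT only were at narrow peaks at Kmt5c, an H4K20 methyltransferase (5.70, 157 bp), Tarbp1 (5.63, 148 bp), Pacsin3 (5.58, 292 bp), Ambra1 (5.04, 545 bp) and Itpa (4.76, 179 bp). In arid4b-delta only, after Wnt3, they were at Gstm5 (10.3, 575 bp), Mansc1 (9.97, 317 bp), Glra1 (7.05, 1181 bp) and Armc2 (6.75, 152 bp).

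The widest sequence found in arid4b-delta only lay in few places. It was a peak of 15441 bp at Tbx20 (chr9:24767683-24783123), with the nearest WT peak 78079 bp from the start. Next came runs of 7524 bp at Fli1, an ETS factor of blood and endothelium, 7221 bp at Bsx, a brain homeobox gene, 6062 bp at Bmper and 5630 bp at Zmiz1. Of the 10 widest such runs, 7 were on chromosome 9 and 2 on chromosome 14. Tbx20, Bmper and Adamts8 were marked the other way round in mesoderm, with a peak in WT and none in arid4b-delta.

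Coverage was therefore compared in bins of 10 Mb along the genome. In 257 of 257 bins with at least 40 peaks of the 2 lists together, arid4b-delta covered more than WT, with a median ratio of 1.56 (5th to 95th percentile 1.25 to 2.60). Of the 285 bins in all, those with fewer peaks were left out, and some of them went the other way. One was 0 to 10 Mb of chromosome 9, with 5.51 kb in WT and 2.04 kb in arid4b-delta. The bins come from the same 2 libraries and are not replicates. The highest ratio, 5.60, lay at 20 to 30 Mb of chromosome 9, with 14.1 kb in WT and 78.9 kb in arid4b-delta. The neighbouring bins from 10 to 50 Mb had ratios of 2.96, 2.69 and 3.67. Over this stretch WT had 58 peaks and arid4b-delta 221. The H3K4me3 ratio in these 4 bins was 1.62 to 1.72, while over the whole list H3K4me3 covered 12.6 Mb in WT and 21.0 Mb in arid4b-delta.

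The WT values in this stretch were unlike those elsewhere. Their median fold was 1.07 with a median −log10 q of 4.95, against 2.12 and 1.63 over the whole WT list. Peaks with a fold under 1.3 and a −log10 q of at least 2 numbered 101 in the WT list, 70 of them on chromosome 9 and 13 on chromosome 14. The arid4b-delta list had 34, with 3 on chromosome 9. The WT mesoderm list also had 98, 90 of them on chromosome 9, and the arid4b-delta mesoderm list 12. Of the 439 genes in the stretch, 32 were marked in arid4b-delta only (7.29%) against 2 in WT only. The WT calls in this stretch thus combined low folds with high significance in 53 of 58 endoderm and 38 of 41 mesoderm peaks, and the part of this in the results at Tbx20, Fli1, Bsx, Bmper and Adamts8 was not tested. Without chromosomes 9 and 14, chosen after seeing the data, the ratio of sequence in peaks of at least 5000 bp was 1.46 (1.48 with them) and the arid4b-delta share of differing promoters 69.8%.

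**Figure D5:**
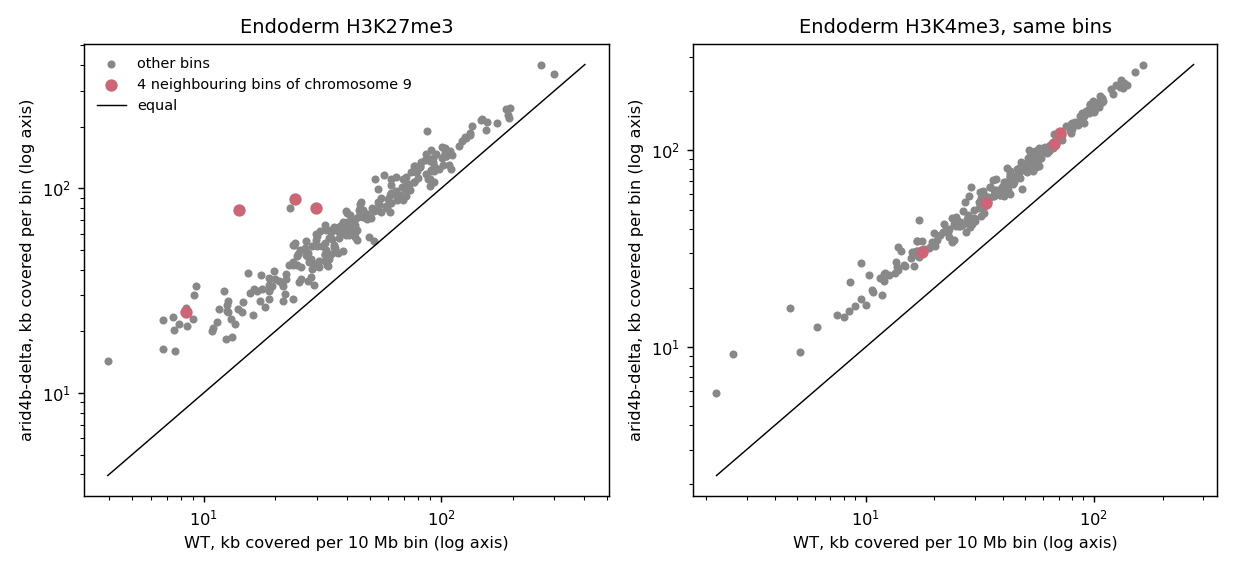
Sequence covered per 10 Mb bin in arid4b-delta against WT on log axes, in kb, for endoderm H3K27me3 (left) and endoderm H3K4me3 (right), in the 257 bins with at least 40 H3K27me3 peaks. All bins lie above the line of equality on the left, and 4 neighbouring bins of chromosome 9 are coloured, among them the bin of the highest ratio, 5.60, on the left. Other bins lie beside some of them, such as 70 to 80 Mb of chromosome 14.

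By chromosome the ratio of covered sequence ran from 1.38 on chromosome 11 to 1.80 on chromosome 9 among the autosomes. On chromosome X it was 2.05, with 0.243 Mb in WT and 0.498 Mb in arid4b-delta. The WT list marked 5.49% of X-linked promoters and the arid4b-delta list 7.66%, the lowest shares of any chromosome but Y. Every chromosome thus had more covered sequence in arid4b-delta than in WT.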

How the data were processed

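ChIP-seq peak lists of 12 libraries were used, the 2 endoderm H3K27me3 lists in the comparison and the other 10 for overlaps with them; the 4 input samples were not used here. Bowtie2, Picard and MACS2, and the build mm10, are named in the submitters' processing notes; versions, settings and controls are not given in the sources used here. Column 7 of each deposited list is the authors' fold enrichment, a ratio of a peak over its background. Column 9 of the deposited H3K27me3 lists is the −log10 q value of the authors' caller, and its lowest value was 0.312 in WT and 0.317 in arid4b-delta. Peaks were called per library, and depth is unknown.

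Peaks on unplaced scaffolds (29 in WT, 86 in arid4b-delta) were left out. Overlap meant at least 1 bp. Starts of 21883 protein-coding genes came from RefSeq tables of GRCm38.p6: 17491 genes had stranded starts, 2644 were given the gene end with more H3K4me3, and 1748 kept both ends. There were 27402 starts in all, some of them inside the annotated gene. A gene counted as marked when any 1 of its starts had a peak within the window. Exons and introns were not used here. Matching by symbol placed 489 of 492 list entries. The interval code was tested on 50 simulated sets, all equal to a brute-force count. Python 3.11.15, numpy 2.4.6, pandas 2.3.3 and scipy 1.17.1 were used.

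There was no test, as each group had 1 library. Genes were named by rule: Arid4b, Sox17, Foxa2, Gata4, Gata6, Ezh2 and Pou5f1; per list and direction up to 3 genes of highest fold marked in 1 genotype only and kept in the lists of equal length; per direction the 5 of highest fold and the 5 widest without the other genotype's peak within 5000 bp; and the 5 widest domains and runs of 1 genotype. Others were named after their values were seen. The comparison, the gene lists and the rule were chosen with earlier results of these data known. Alternatives were equal length or equal covered sequence by fold, the upper 50%, −log10 q of at least 2, peaks of at least 500 bp, autosomes, peaks joined over 1000 or 5000 bp, promoter windows of 500 or 2500 bp, either gene end, at least 500 bp of the window covered, no other peak within 5000 bp, and sharing by 50% coverage. Equal length by −log10 q or width, leaving out chromosomes 9 and 14, and stranded starts only were chosen after seeing the data.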

Additional observations from a re-analysis of the deposited data

Results flagged for a closer look

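Several endoderm results ran the other way in mesoderm, and in each case the difference was not tested, since each is 1 library a genotype. In the endoderm marker list the number of marked promoters, arid4b-delta minus WT, was 1 in endoderm and -1 in mesoderm. In the Sin3-HDAC list it was -1 and 1, and in the Hedgehog list -3 and 2. The promoter windows of Tbx20, Bmper and Adamts8 were covered over 2001 bp more in arid4b-delta than in WT in endoderm, and in mesoderm each held a peak in WT only. At Phc2 the endoderm difference was 285 bp, with the mesoderm peak in WT only. At Sfrp2 it was -613 bp and at Cd302 -1203 bp, with the mesoderm peak in arid4b-delta only.

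The ratio of covered sequence, arid4b-delta over WT, was 2.96 at 10 to 20 Mb and 5.6 at 20 to 30 Mb of chromosome 9 in endoderm, and 0.155 and 0.0288 in mesoderm. The mesoderm values rest on 2 and 22 peaks in WT and 1 and 1 in arid4b-delta. Both WT lists had unusually low folds with high −log10 q there, and the part of this in the ratios was not tested. The arid4b-delta list also held 86 peaks on unplaced scaffolds, which entered no comparison, and the WT list 29.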

How the results depend on the processing

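Of 64 values of the 5 results under the alternatives, 49 stayed within 1.5 times the reported ratio, or within the interval of the reported share. The ratio of covered sequence was 1.51, and that of sequence in peaks of at least 5000 bp was 1.48. Both stayed above 1 and within 1.5 times in each alternative that gave a value. Equal covered sequence gives none for the first by construction. The tolerance is wide, as the first fell to 1.08 at equal length by fold and still counted as kept. The ratio of promoter peaks (1.21) and the arid4b-delta share of differing promoters (70.2%) turned to 0.825 and 34.7% at equal length by fold, 0.76 and 30.3% at equal covered sequence, and 0.839 and 34.9% at equal length by −log10 q. These cuts shorten the arid4b-delta list alone. The share was 60.0% in the upper 50% by fold, 66.4% at −log10 q of at least 2, 77.5% for peaks of at least 500 bp, 57.2% at equal length by width, 65.8% with a window of 500 bp and 73.9% with at least 500 bp of the window covered. Shared arid4b-delta peaks were found in arid4b-delta mesoderm 5.65 times as often as arid4b-delta-only peaks, and 3.63, 3.32 and 3.24 times under the first 3 of these. The causes were not tested. Of 605 values of named genes, 525 stayed, 80 moved and 0 reversed; of 440 list counts 305 stayed. No paired analysis was possible because each genotype had 1 library. The unknown depth limits every count of narrow peaks.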
